A study of Mus musculus with 10 samples.

Results

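The genes described here are the axon guidance ligands and receptors of the ephrin, semaphorin, Slit and netrin systems, measured in cell lines of mouse small cell lung cancer (SCLC) with a MYCN transgene on or off. They were chosen by symbol, as every ephrin, Eph receptor, semaphorin of classes 3 to 7, plexin, neuropilin, Slit, Robo, netrin, Dcc or Unc5 gene in the count files. That rule found 70 of the 24391 genes in the files, and 62 of them had at least 10 counts in at least 4 libraries. Of the other 8, Epha6, Epha10, Ephb1, Robo3, Robo4, Ntn5 and Sema4a fell below that count, and Plxna4os1, an antisense gene that the symbol rule also matches, had 0 counts in every library. The data are RNA-seq libraries of 5 lines, G4314, G9351, G9488, G9529 and G9577, each with 1 library with MYCN on and 1 with MYCN off. The MYCN-on cells grew with doxycycline and the MYCN-off cells had been without it for 4 days. All 10 libraries share a genotype with altered Rb and p53, a MYCN transgene behind a tetracycline-responsive element (TRE-MYCN) and the doxycycline-dependent activator rtTA behind a lox-stop-lox cassette (LSL-RTTA). The Cre that opened the cassette, the species of the transgene, and whether a line is 1 clone are not given in the sources used here. No library is from cells given doxycycline without the transgene, so an effect of the drug itself cannot be told apart from that of MYCN.

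Guidance ligands steer growing axons and migrating cells by attraction or repulsion. Ephrins are tethered to the membrane and bind Eph receptor tyrosine kinases on a neighbouring cell, whereas class 3 semaphorins, Slits and netrins are secreted and are read by neuropilins with plexins, by Robo receptors and by Dcc or Unc5 receptors. The same molecules act outside the nervous system in vessels, epithelia and tumours, and SCLC is a lung tumour with neuroendocrine, neuron-like features.

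Total counts ran from 9586465 to 11960074 per library, and Mycn itself lay between 496 and 977 CPM in the MYCN-on libraries and between 27.6 and 189 CPM in the MYCN-off libraries. Levels are CPM, counts scaled to library size with TMM factors, and the values of single libraries are always in the order G4314, G9351, G9488, G9529, G9577. Neuroendocrine markers, which are typical of SCLC, were far lower in G9577 than in the other lines. In that line 10 neuroendocrine markers summed to 238 CPM (MYCN on) and 249 CPM (MYCN off), against 3465 to 4313.7 CPM (MYCN on) and 5637 to 7241 CPM (MYCN off) in the other lines. Mesenchymal markers (12 genes) summed to 3965 CPM (MYCN on) and 18223 CPM (MYCN off) in G9577, and to between 43.5 and 179 CPM in the libraries of the other lines. Vim was at 1638 CPM (MYCN on) and 4409 CPM (MYCN off) there, Thy1 was at 0, and Vim did not exceed 0.475 CPM in any other library. For part of the results, values without G9577 are therefore given as well.

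The 6 guidance genes with the smallest p in the comparison of MYCN on with off were Nrp1, Plxna4, Epha8, Ntn4, Sema3e and Sema3b. Their promoters are printed where the RefSeq table holds them (build GRCm38.p6, 250 bases before to 50 after the start). Capitals mark CACGTG, the E-box that MYC family proteins bind with MAX. Positions are chr8:128358823-128359122, plus strand, for Nrp1, chr4:136956767-136957066, minus strand, for Epha8, chr10:93640799-93641098, plus strand, for Ntn4, and chr5:14025026-14025325, plus strand, for Sema3e. Plxna4 and Sema3b have no entry.
Nrp1: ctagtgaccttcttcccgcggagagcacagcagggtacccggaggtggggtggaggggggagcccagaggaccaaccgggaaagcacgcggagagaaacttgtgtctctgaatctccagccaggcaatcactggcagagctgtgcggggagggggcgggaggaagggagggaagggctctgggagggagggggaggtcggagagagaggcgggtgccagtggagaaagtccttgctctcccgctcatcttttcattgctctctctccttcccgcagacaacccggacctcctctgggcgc
Epha8: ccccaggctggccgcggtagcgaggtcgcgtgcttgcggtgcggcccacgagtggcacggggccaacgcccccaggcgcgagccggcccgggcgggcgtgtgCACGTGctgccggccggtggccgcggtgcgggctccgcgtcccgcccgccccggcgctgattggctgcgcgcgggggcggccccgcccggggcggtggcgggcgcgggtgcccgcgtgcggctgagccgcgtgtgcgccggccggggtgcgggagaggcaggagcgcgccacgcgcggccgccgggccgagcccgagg
Ntn4: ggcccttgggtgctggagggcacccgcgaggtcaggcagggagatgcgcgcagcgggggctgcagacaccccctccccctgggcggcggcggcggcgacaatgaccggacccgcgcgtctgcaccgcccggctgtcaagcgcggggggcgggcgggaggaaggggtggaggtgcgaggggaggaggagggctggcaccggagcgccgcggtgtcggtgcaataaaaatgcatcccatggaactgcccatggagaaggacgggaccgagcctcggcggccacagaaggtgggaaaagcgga
Sema3e: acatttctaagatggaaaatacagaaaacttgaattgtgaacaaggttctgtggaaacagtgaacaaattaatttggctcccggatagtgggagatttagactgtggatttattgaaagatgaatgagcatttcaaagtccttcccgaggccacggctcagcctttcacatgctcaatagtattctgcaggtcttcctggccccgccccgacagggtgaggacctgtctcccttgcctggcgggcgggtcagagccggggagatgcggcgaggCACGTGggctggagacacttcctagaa
The word CACGTG, which reads the same on both strands, stood in the promoters of Epha8, the only one of these genes that was higher with MYCN on, and of Sema3e, which was lower. Nrp1 and Ntn4 had no such word in this window. A promoter matched 52 of the 62 genes, and 5 of those 52 (9.62%) held the word, namely Sema6d, Epha8, Sema3e, Sema4b and Robo2. Among all 32851 promoters 7.15% held it, and among the 27025 genes with a promoter 8.09% did.

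With all 5 lines in the test, the guidance genes that changed were nearly all lower with MYCN on. Of the 58 genes with enough counts for the test, 17 were lower and 1, Epha8, was higher at an adjusted p under 0.05 (edgeR's quasi-likelihood test with the line as a block, Benjamini-Hochberg adjustment over all 12835 genes tested). Over all genes 15.6% were lower and 15.3% higher by the same test. The genes that fell take in receptors and ligands of the ephrin, semaphorin and netrin systems, led by Nrp1, Plxna4, Ntn4, Sema3e and Sema3b, and no Slit or Robo passed. The median fitted log2 change (MYCN on minus MYCN off) was -0.46 over the 58 genes and -0.08 over all genes. Without G9577 it was -0.18 over 58 guidance genes, with Unc5d tested in place of Efna1, and -0.02 over all genes. In single lines the members' median log2 change was -0.08 in G4314, -0.24 in G9351, -0.24 in G9488, -0.47 in G9529 and -1.43 in G9577, where the median of all genes was -0.23. Lower levels in every line were found for 17 of the 58 genes, and 23.2% of all genes were lower in all 5 lines. Epha8 alone was higher in all 5, as were 20.9% of all genes. The 70 members together held 0.306%, 0.237%, 0.224%, 0.261% and 0.286% of a library's counts with MYCN on and 0.397%, 0.327%, 0.323%, 0.372% and 0.619% with MYCN off, so their share was lower in each line with MYCN on.

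**Figure D1:**
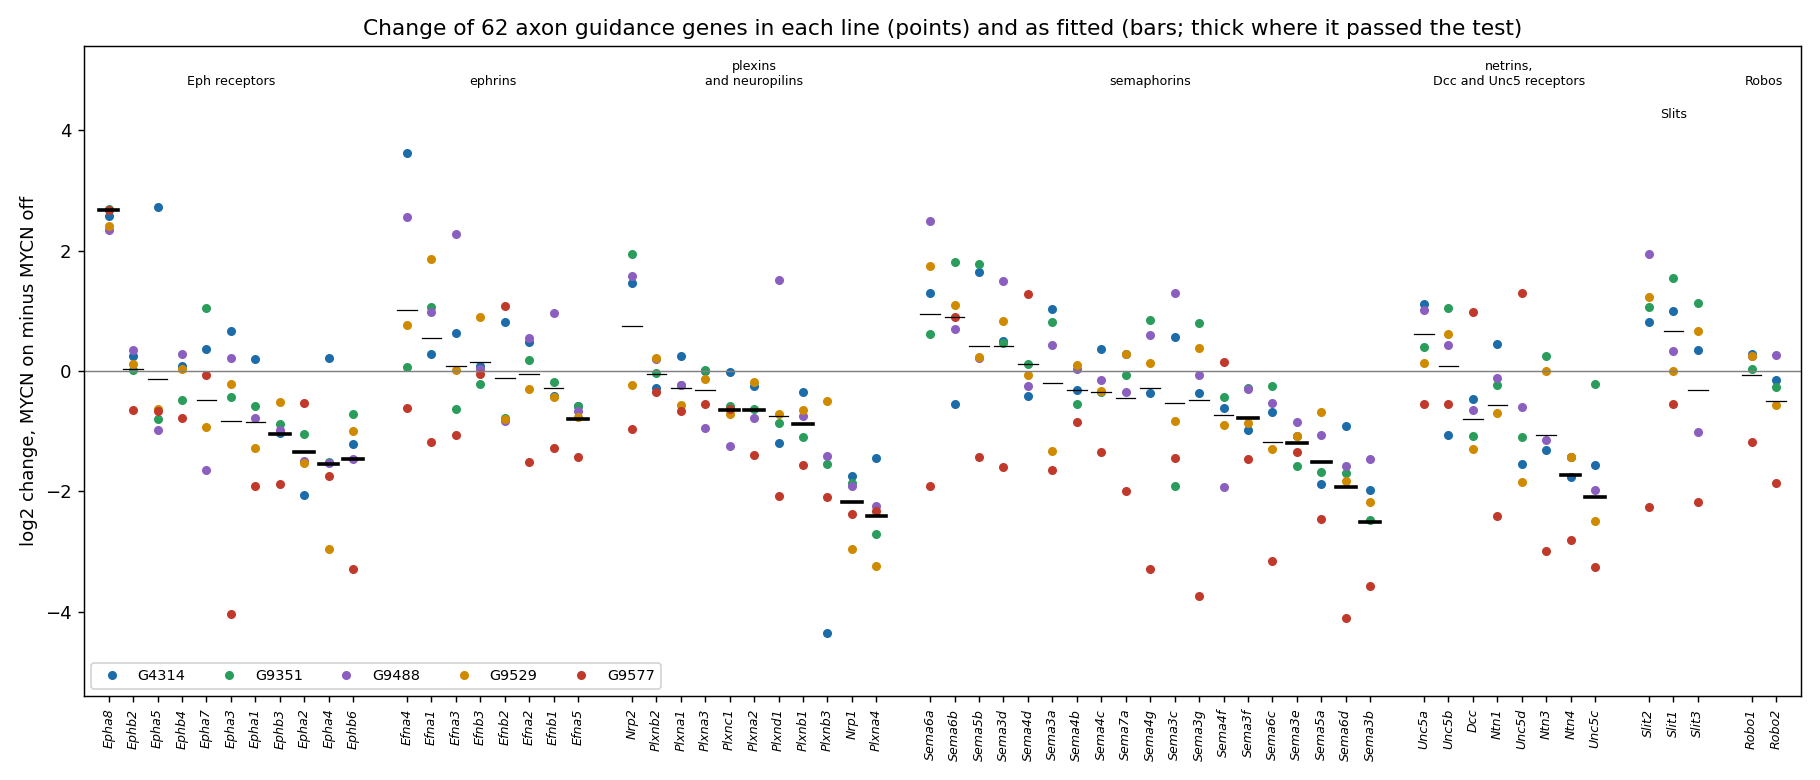
Log2 change (MYCN on minus MYCN off, prior count 2) of the 62 reported genes in each line, as coloured points, grouped by class; horizontal bars are the fitted change over all 5 lines for the 58 genes tested, thick for the 18 that passed the test. All 5 points of Epha8 lie above 0, those of 16 of the 17 genes called lower lie below it, and the red points of G9577 often lie lowest.

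These are bulk libraries, in which fewer cells of a type and less RNA per cell cannot be told apart. Some markers of cell types and states were also lower, where 15.6% of all genes were lower by the same test. Of the 10 neuroendocrine markers 7 were lower with MYCN on and the other 3 did not pass, and the sum of the 10 was lower in each line. In G9577 the sums were close, at 238 CPM (MYCN on) and 249 CPM (MYCN off), and hid opposite moves. There Uchl1 was higher with MYCN on (118 against 17.3 CPM) and Ncam1 lower (99.8 against 125 CPM). Endothelial markers (8 genes) summed to 8.59 to 150.0 CPM (MYCN on) and 50.2 to 462 CPM (MYCN off), and the 2 that passed, both lower, were Vwf and Tek. Of the other 6, Cdh5, Tie1, Emcn and Cldn5 were at or near 0, none above 0.453 CPM. Pecam1 had counts in all 10 libraries, at up to 1.81 CPM, and did not pass. Kdr was at 35.4 CPM (MYCN on) and 130.4 CPM (MYCN off) in G9577 and near 0 in the other lines. Of the 12 mesenchymal markers 5 could be tested, and 1, S100a4, was lower. Of the 8 lung epithelial markers 4 could be tested, and Foxj1 and Nkx2-1 were lower. They summed to 202 to 1883 CPM (MYCN on) and 552 to 2759.7 CPM (MYCN off). Immune markers (8 genes) summed to 3.82 to 5.99 CPM (MYCN on) and 1.81 to 60.9 CPM (MYCN off). The highest sum was that of G9577 with MYCN off, where Lyz2 had 55.0 CPM, against 0.0932 CPM with MYCN on. The other immune markers did not exceed 4.90 CPM in that library. Of the lung markers, Sftpb had 39.4 CPM (MYCN off) and 0.466 CPM (MYCN on) in G9577, and at most 0.685 CPM in the other lines. The part of these markers in the guidance genes' change was not tested.

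Among the Eph receptors, 10 were tested, 1 was higher and 4 were lower, where 15.3% of all genes were higher and 15.6% lower. Epha8 (mm9 chromosome 4, 136485334 to 136512731, minus strand), a receptor of the A class known from the developing midbrain, was the only guidance gene called higher over all 5 lines. Without G9577, 5 guidance genes were called higher, Epha8 among them, where 17.4% of all genes were. Epha8 had 13.3, 16.2, 13.2, 31.4 and 1.02 CPM with MYCN on, against 2.08, 2.34, 2.44, 5.72 and 0 CPM with MYCN off. Apart from G9577 every MYCN-on library lay above every MYCN-off library. The mean was 15.02 ± 10.8 CPM (SD, n = 5 lines) for MYCN on and 2.52 ± 2.05 CPM for MYCN off, and the fitted change was 2.68 on the log2 scale (SE 0.31, adjusted p = 0.00354), or 6.41-fold higher. In G9577 the gene had 11 counts with MYCN on and 0 with MYCN off, so the size of the change in that line depends on the prior count, and without G9577 the log2 change was 2.59 (adjusted p = 0.00109).

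Epha2 (mm9 chromosome 4, 140857136 to 140885299, plus strand), an ephrin-A receptor of epithelia that is abundant in many carcinomas, was lower. Epha2 had 1.57, 0.987, 30.7, 11.6 and 148 CPM with MYCN on, against 7.16, 2.25, 86.4, 33.99 and 215 CPM with MYCN off. The MYCN-on library was the lower of the pair in each line, while the lines differed widely and the groups overlapped. Its fitted change was -1.35 on the log2 scale (SE 0.24, adjusted p = 0.00839), and -1.60 (adjusted p = 0.00241) without G9577, the line with the highest level and the smallest change. Ephb3 (mm9 chromosome 16, 21204868 to 21223377, plus strand), an ephrin-B receptor that positions cells in the intestinal epithelium, had the highest mean level per length of the class, 40.7 RPKM (CPM per kilobase of exon). Ephb3 had 229.7, 87.5, 68.4, 133 and 45.01 CPM with MYCN on, against 470.1, 161, 136, 189 and 167 CPM with MYCN off. G4314 stood highest in both conditions and every line was lower with MYCN on, and the change was -1.05 on the log2 scale (SE 0.19, adjusted p = 0.00952).

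Ephb6 (mm9 chromosome 6, 41555481 to 41570506, plus strand), whose kinase domain is inactive, was lower in all 5 lines. Ephb6 had 24.4, 27.04, 30.4, 34.6 and 1.86 CPM with MYCN on, against 57.2, 44.6, 84.01, 68.9 and 19.8 CPM with MYCN off. The range with MYCN on overlapped that with MYCN off through G9577. The change was -1.46 on the log2 scale (SE 0.36, adjusted p = 0.022), and the call was lost without G4314 or without G9488 (highest adjusted p = 0.0622 with a line left out). Without G9577 the change of Ephb6 was -1.09 (adjusted p = 0.00303). Epha4 (mm9 chromosome 1, 77363760 to 77511663, minus strand), which binds ephrins of both classes and repels motor axons, was lower in 4 of 5 lines. Epha4 had 20.6, 9.47, 1.77, 7.98 and 60.8 CPM with MYCN on, against 17.8, 27.3, 5.48, 63.4 and 205 CPM with MYCN off. G4314 was slightly higher with MYCN on, and G9577 was highest in both conditions. This change of -1.54 on the log2 scale (SE 0.42, adjusted p = 0.0318) was lost without G9351, G9488, G9529 or G9577, each left out in turn, with an adjusted p of up to 0.0851. Ephb2, another ephrin-B receptor and the class's second most abundant per length at 19.2 RPKM, did not pass. Ephb2 had 117, 131, 74.1, 159 and 7.83 CPM with MYCN on, against 98.5, 129, 58.2, 147 and 12.4 CPM with MYCN off. The groups overlapped, 4 of 5 lines being higher with MYCN on and G9577 lower and far below the rest, and the fitted change was 0.03 on the log2 scale (SE 0.16, adjusted p = 0.892). Epha1, Epha3, Epha5 and Epha7 did not pass either, with fitted changes between -0.84 and -0.14. Epha1 shares exon bases with Zyx, and reads over both genes were not counted.

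Of the ephrins, 8 were tested and 1 (12.5%) was lower, which is below the 15.6% of all genes. Efna5 (mm9 chromosome 17, 62952306 to 63230666, minus strand), a lipid-anchored ephrin that sets up retinal maps and the class's most abundant member at 16.2 RPKM, fell. Efna5 had 92.7, 37.2, 65.3, 75.9 and 41.1 CPM with MYCN on, against 139, 56.1, 104, 128 and 111 CPM with MYCN off. Every line was lower with MYCN on, by a similar factor in the first 4 lines and more in G9577. Its change was -0.81 on the log2 scale (SE 0.16, adjusted p = 0.0111), or 1.75-fold lower. Efnb2, the transmembrane ephrin of arterial endothelium, at 11.3 RPKM, did not pass. Efnb2 had 62.04, 48.3, 12.5, 64.4 and 32.99 CPM with MYCN on, against 35.2, 83.1, 22.6, 112 and 15.5 CPM with MYCN off. It was higher with MYCN on in G4314 and G9577 and lower in the other 3 lines, and the fitted change was -0.12 on the log2 scale (SE 0.35, adjusted p = 0.815). The other 6 ephrins had fitted changes between -0.29 (Efnb1) and 1.01 (Efna4), with adjusted p-values from 0.359 to 0.922.

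Of 10 tested plexins and neuropilins, which are the semaphorin receptors, 5 were lower, against 15.6% of all genes. None was higher in edgeR, DESeq2 or limma-voom, and the 5 were also those with an unadjusted p under 0.05 in edgeR. Nrp1 (mm9 chromosome 8, 130882973 to 131029375, plus strand), the neuropilin that binds class 3 semaphorins and VEGF, had the smallest p of all members. Nrp1 had 52.1, 58.3, 8.83, 20.8 and 285 CPM with MYCN on, against 176, 211, 33.7, 162 and 1481 CPM with MYCN off. Each line was lower with MYCN on, and G9577 stood above the other lines in both conditions. The mean was 85.1 ± 114 CPM (SD, n = 5 lines) for MYCN on and 413 ± 601 CPM for MYCN off, and the fitted change was -2.17 on the log2 scale (SE 0.20, adjusted p = 0.00265), or 4.51-fold lower. Its exons share bases with the microRNA gene Mir1903, and reads over both genes were not counted. Plxna4 (mm9 chromosome 6, 32094559 to 32538192, minus strand), the plexin that signals for Sema3a bound to Nrp1, fell as well. Plxna4 had 29.4, 1.38, 5.02, 8.93 and 21.6 CPM with MYCN on, against 79.98, 10.03, 24.4, 85.6 and 109.7 CPM with MYCN off. All 5 lines were lower with MYCN on, G9529 most and G4314 least, and the change was -2.40 on the log2 scale (SE 0.28, adjusted p = 0.00339), or 5.29-fold lower.

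Plxnb1 (mm9 chromosome 9, 108997950 to 109022429, plus strand), the receptor for Sema4d, was lower in every line. Plxnb1 had 192, 106, 229, 295 and 94.3 CPM with MYCN on, against 245, 229, 385, 463 and 278 CPM with MYCN off. The groups overlapped, since lines with a high level with MYCN on exceeded others with MYCN off, and the change was -0.88 on the log2 scale (SE 0.18, adjusted p = 0.0133). Plxnc1 (mm9 chromosome 10, 94253612 to 94407212, minus strand), the receptor for Sema7a, changed least in G4314. Plxnc1 had 35.5, 38.9, 51.5, 48.1 and 15.4 CPM with MYCN on, against 36.05, 58.02, 122.5, 78.8 and 24.05 CPM with MYCN off. Its change of -0.64 on the log2 scale (SE 0.19, adjusted p = 0.0374) was lost without G9351, G9488 or G9529, with an adjusted p of up to 0.126. Plxna2 (mm9 chromosome 1, 196446023 to 196643062, plus strand), a receptor for class 3 and class 6 semaphorins, had a similar fitted change. Plxna2 had 166, 129.7, 114, 142 and 32.6 CPM with MYCN on, against 198, 201, 197, 160.1 and 86.5 CPM with MYCN off. G9577 was lowest in both conditions, and the change of -0.64 on the log2 scale (SE 0.19, adjusted p = 0.0386) was lost without G4314, G9351 or G9488, with an adjusted p of up to 0.104.

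Plxnb2, the Sema4c receptor, was the most abundant guidance gene per length, with a mean of 68.0 RPKM over the 10 libraries. Plxnb2 had 328, 374, 366, 326 and 770.4 CPM with MYCN on, against 399, 384, 319, 282 and 977 CPM with MYCN off. The groups overlapped, with 3 lines lower and 2 higher with MYCN on, and the change was -0.05 on the log2 scale (SE 0.13, adjusted p = 0.781). Plxna1, Plxna3, Plxnd1 and Nrp2 did not pass, with fitted changes between -0.75 (Plxnd1) and 0.75 (Nrp2). Plxnb3, a receptor for Sema5a, was too low for the test. Plxnb3 had 0, 0.197, 0.651, 0.5702 and 0.373 CPM with MYCN on, against 3.71, 0.937, 2.05, 0.881 and 2.23 CPM with MYCN off. It was lower with MYCN on in each line, at low counts. In a fit with a filter of 10 counts in 4 libraries (13288 genes, of which 15.5% were lower), Plxnb3 changed by -2.32 on the log2 scale (SE 0.70, adjusted p = 0.0425). Plxnb3 had at most 7 counts with MYCN on and 10 to 41 counts with MYCN off. It met that filter only through the group where it was higher, so this p-value gives no support for the change.

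Of 19 semaphorins tested, 5 (26.3%) were lower, against 15.6% of all genes, and none was higher in edgeR, DESeq2 or limma-voom. Sema3e (mm9 chromosome 5, 14025276 to 14256689, plus strand), a secreted ligand that binds Plxnd1 without a neuropilin, was lower in all 5 lines. Sema3e had 65.96, 29.3, 34.9, 23.7 and 10.2 CPM with MYCN on, against 139.8, 88.2, 62.6, 50.02 and 26.5 CPM with MYCN off. The groups overlapped, G4314 being highest and G9577 lowest in both conditions. Log2 changes of single lines lay between -1.58 and -0.84, and the fitted change was -1.19 on the log2 scale (SE 0.15, adjusted p = 0.00392). Sema3b (mm9 chromosome 9, 107500005 to 107511572, minus strand) and Sema3f (mm9 chromosome 9, 107583833 to 107612806, minus strand) are secreted ligands of the neuropilins, and the human counterparts of both lie in a region often lost in lung cancer. Sema3b had 1.76, 0.296, 1.58, 1.81 and 2.795 CPM with MYCN on, against 7.52, 2.53, 4.69, 8.81 and 35.2 CPM with MYCN off. All MYCN-off libraries but that of G9351 lay above the highest MYCN-on library, and the change was -2.50 on the log2 scale (SE 0.36, adjusted p = 0.00509), or 5.67-fold lower. Without G9577 the change of Sema3b was -2.13 (adjusted p = 0.00391). Sema3f had 14.02, 12.2, 13.9, 20.2 and 85.1 CPM with MYCN on, against 27.7, 14.9, 17.1, 36.8 and 234 CPM with MYCN off. G9577 was highest in both conditions. The change of Sema3f was -0.79 on the log2 scale (SE 0.21, adjusted p = 0.0275), and it was lost without G4314 or without G9529 (adjusted p up to 0.0823).

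Sema5a (mm9 chromosome 15, 32174568 to 32626096, plus strand), a transmembrane semaphorin with thrombospondin repeats, was lower in each line. Sema5a had 4.21, 15.9, 34.2, 6.94 and 0.373 CPM with MYCN on, against 16.03, 51.4, 71.7, 11.3 and 2.89 CPM with MYCN off. The lines overlapped between conditions, G9488 being highest and G9577 lowest in both, and the change was -1.52 on the log2 scale (SE 0.30, adjusted p = 0.0112). Sema6d (mm9 chromosome 2, 123915705 to 124493525, plus strand), a transmembrane ligand of Plxna1, was also lower in each line. Sema6d had 13.3, 22.01, 45.9, 33.9 and 1.21 CPM with MYCN on, against 25.4, 71.6, 137, 122 and 24.05 CPM with MYCN off. The fall was deepest in G9577, and the fitted change was -1.92 on the log2 scale (SE 0.41, adjusted p = 0.0151) over 5 lines and -1.51 (adjusted p = 0.00213) without G9577. Sema4d and Sema4c, ligands of Plxnb1 and Plxnb2, had the highest levels per length of the class, 15.6 and 14.7 RPKM. Sema4d had 87.7, 86.2, 68.3, 67.5 and 34.7 CPM with MYCN on, against 117, 79.5, 81.3, 70.7 and 14.2 CPM with MYCN off. Sema4c had 75.7, 79.1, 44.8, 66.1 and 21.1 CPM with MYCN on, against 58.5, 101, 49.7, 83.5 and 53.5 CPM with MYCN off. Neither differed in a constant direction. The fitted change was 0.11 on the log2 scale (SE 0.25, adjusted p = 0.747) for Sema4d. For Sema4c it was -0.35 on the log2 scale (SE 0.23, adjusted p = 0.272). Over the 14 semaphorins that did not pass, fitted changes ran from -1.18 (Sema6c, adjusted p = 0.079) to 0.95 (Sema6a, adjusted p = 0.277).

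Among netrins and their receptors, 7 were tested and 2 (28.6%) were lower, against 15.6% of all genes. Ntn4 (mm9 chromosome 10, 93103794 to 93208717, plus strand), a laminin-related netrin of basement membranes, was the most abundant ligand per length, at 53.5 RPKM. Ntn4 had 89.3, 63.9, 119, 51.8 and 3.54 CPM with MYCN on, against 302, 172, 323, 139.7 and 25.8 CPM with MYCN off. Each line was lower with MYCN on, and G9577 was far below the others in both conditions. Ntn4 changed by -1.74 on the log2 scale (SE 0.22, adjusted p = 0.00388), or 3.33-fold lower. Unc5c (mm9 chromosome 3, 141128528 to 141497888, plus strand), a receptor for repulsion by netrin, was low in all lines but G9577. Unc5c had 4.999, 1.58, 1.02, 1.24 and 29.5 CPM with MYCN on, against 15.1, 1.87, 4.596, 7.84 and 282 CPM with MYCN off. All lines were lower with MYCN on, G9351 with 16 counts against 20, and the change was -2.10 on the log2 scale (SE 0.41, adjusted p = 0.0116). Without G9577 the change of Unc5c was -1.68 (adjusted p = 0.0193). Unc5b, a netrin receptor of vessels and the second most abundant of this class at 20.2 RPKM, did not pass. Unc5b had 43.03, 36.02, 5.86, 39.3 and 377 CPM with MYCN on, against 90.03, 17.4, 4.303, 25.5 and 549 CPM with MYCN off. G4314 and G9577 were lower and the other 3 lines higher with MYCN on, and the change was 0.08 on the log2 scale (SE 0.32, adjusted p = 0.87). Ntn1, the netrin of the spinal cord floor plate, and its attractive receptor Dcc did not pass, with fitted log2 changes of -0.57 (adjusted p = 0.278) and -0.80 (adjusted p = 0.0665). Unc5a, which shares exon bases with Hk3, had a fitted log2 change of 0.61 (adjusted p = 0.0803), and Ntn3, which shares exon bases with Tbc1d24, one of -1.06 (adjusted p = 0.149). Unc5d was below the test's count filter and changed by a log2 value of -1.35 (adjusted p = 0.14) with the filter of 10 counts in 4 libraries.

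No Slit or Robo passed in edgeR, DESeq2 or limma-voom, and 0 of the 4 tested had an unadjusted p under 0.05 in edgeR. Robo1, a Slit receptor and the most abundant of these genes at 37.3 RPKM, did not pass. Robo1 had 579, 202, 302, 207 and 131 CPM with MYCN on, against 479, 197, 255, 174 and 297 CPM with MYCN off. It was higher with MYCN on in 4 lines and lower in G9577, and the fitted change was -0.06 on the log2 scale (SE 0.23, adjusted p = 0.845). Without G9577 the change of Robo1 was 0.21 (adjusted p = 0.145). Robo2 (mm9 chromosome 16, 73892551 to 74411157, minus strand), the second Slit receptor, lay at 2.80 RPKM. Robo2 had 19.9, 37.8, 9.85, 23.7 and 4.94 CPM with MYCN on, against 22.01, 45.6, 8.12, 35.05 and 18.4 CPM with MYCN off. The groups overlapped, 4 of 5 lines being lower with MYCN on and G9577 most so, and the change was -0.50 on the log2 scale (SE 0.31, adjusted p = 0.243) over 5 lines and -0.18 (adjusted p = 0.448) without G9577. The ligands Slit2 and Slit3 were low outside G9577, at no more than 4.34 CPM. Slit3 had 0.9801, 4.34, 0, 1.24 and 78.7 CPM with MYCN on, against 0.725, 1.87, 0.196, 0.704 and 357 CPM with MYCN off. Slit2 had 0.784, 1.18, 2.79, 0.665 and 32.7 CPM with MYCN on, against 0.362, 0.469, 0.587, 0.176 and 158 CPM with MYCN off. In G9577 both were high and lower with MYCN on, whereas Slit2 was higher with MYCN on, at these low levels, in each of the other 4 lines. Slit3 changed by -0.32 on the log2 scale (SE 0.65, adjusted p = 0.721) over 5 lines and by 0.67 (adjusted p = 0.324) without G9577. This estimate depended on the method: the log2 change of Slit3 was -1.49 with limma-voom (adjusted p = 0.0529). In edgeR without the line block it was -2.08 (adjusted p = 0.633). Slit2 was below the test's count filter and changed by a log2 value of 0.39 (adjusted p = 0.718) with the filter of 10 counts in 4 libraries. For Slit1 the fitted log2 change was 0.66 (adjusted p = 0.184).

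**Figure D2:**
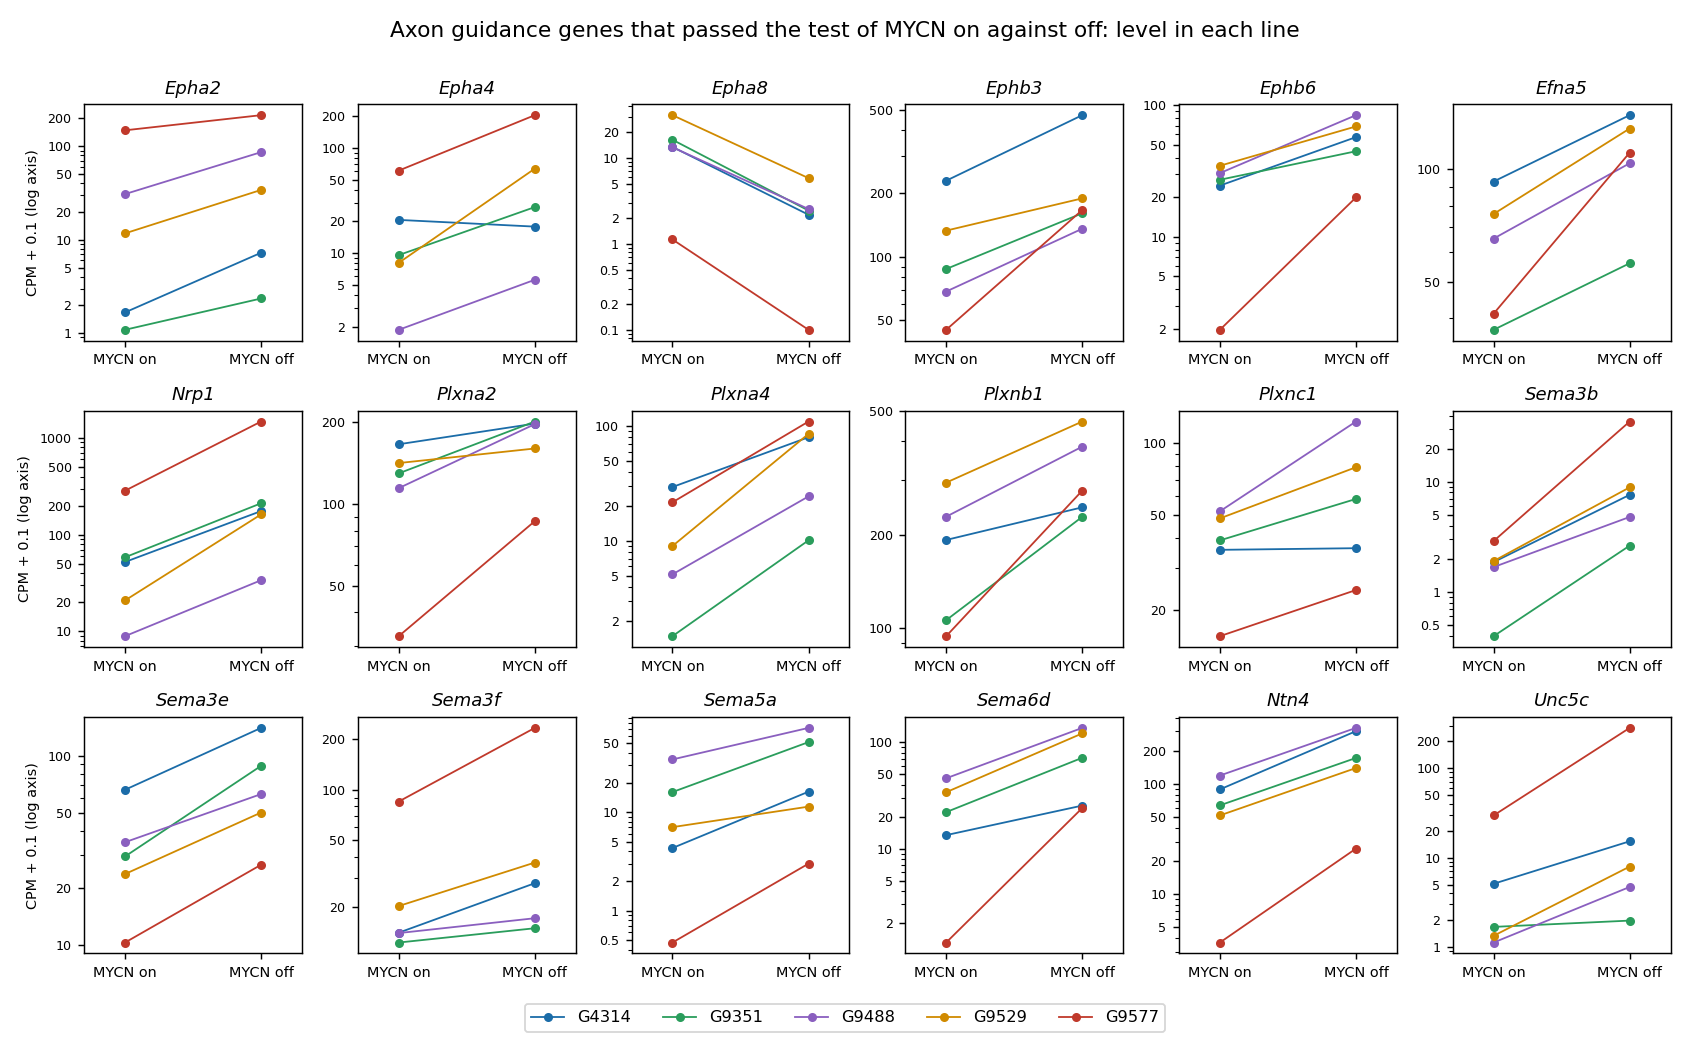
Level of the 18 genes that passed the test, as CPM + 0.1 on a log axis, with MYCN on at the left and MYCN off at the right of each panel; a coloured line joins the pair of libraries of a cell line. Every line of Epha8 slopes down to the right, and the lines of the other 17 genes slope up, apart from Epha4 in G4314.

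The lines differed from each other in most guidance genes. The line term passed for 47 of 58 genes (81.0%) in the same fit, against 45.6% of all genes, and the median spread between the highest and lowest line was 3.10 on the log2 scale against 1.22 over all genes. All 10 plexins and neuropilins differed among lines, as did 9 of 10 Eph receptors, 6 of 8 ephrins, 13 of 19 semaphorins, 5 of 7 netrins and receptors, both Robos and both Slits tested. With the filter of 10 counts in 4 libraries 50 of 62 genes differed, among 46.5% of all genes. G9577 was the highest line for 24 and the lowest for 20 of the 58. Over all 12835 genes tested it was the highest line for 4553 and the lowest for 4524. Without G9577 the line term passed for 32 of the 58 genes tested then (Unc5d in place of Efna1), against 31.2% of all genes. Many guidance genes therefore also differed among the other 4 lines. Unc5a and Dcc were present in the 4 neuroendocrine lines, at 40.7 to 98.2 CPM and 12.5 to 41.1 CPM (MYCN on) and at 18.7 to 74.8 CPM and 26.8 to 80.2 CPM (MYCN off). In G9577 Unc5a did not exceed 0.223 CPM and Dcc 0.186 CPM. Ephb4, the receptor for Efnb2, had the opposite pattern, with 74.8 CPM (MYCN on) and 128 CPM (MYCN off) in G9577 and at most 2.16 CPM elsewhere.

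**Figure D3:**
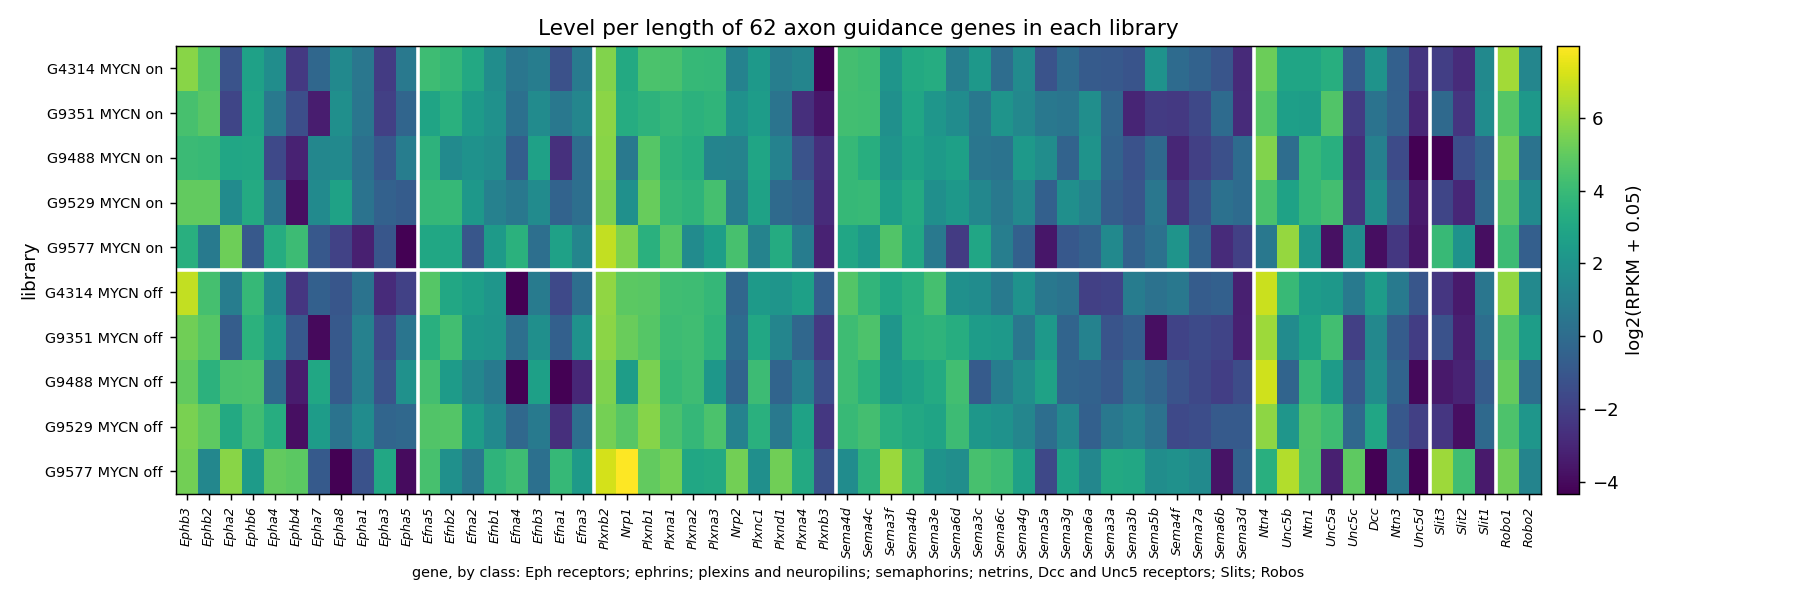
Level per length of the 62 reported genes, as log2(RPKM + 0.05), in the 10 libraries, with the 5 MYCN-on libraries above the 5 MYCN-off libraries and white lines between classes and conditions. The rows of G9577 stand apart: Nrp1, Epha2, Ephb4, Unc5b, Slit2 and Slit3 are brighter there than in the other lines, and Epha8, Epha5, Unc5a and Dcc are darker.

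The change with MYCN in G9577 was set against that of the other 4 lines with a further term in the fit, chosen after seeing the data, with 3 residual degrees of freedom and a single pair of libraries for G9577. The spread of G9577 itself cannot be measured, so the p-values assume that it varies like the other 4 lines. Under that assumption the change of 11 guidance genes in this pair of libraries lay below that in the other lines at an adjusted p under 0.05, and that of 1, Sema4d, lay above it. The background was 5.38% of all genes for a lower and 1.62% for a higher change. Epha3 changed by a log2 value of -4.17 in G9577 and 0.02 in the other lines (adjusted p of the difference 0.0242). Epha3 had 0.686, 0.789, 1.86, 2.57 and 1.77 CPM with MYCN on, against 0.362, 1.12, 1.56, 2.99 and 32.2 CPM with MYCN off. The 2 libraries of the other lines stayed within 1 log2 unit of each other, and the MYCN-off library of G9577 alone was high. Sema3g changed by -3.86 in G9577 and 0.20 in the others (log2, adjusted p = 0.0242), Sema4g by -3.37 and 0.30 (adjusted p = 0.026), and Slit3 by -2.18 and 0.77 (adjusted p = 0.0336). Robo1 changed by -1.18 in G9577 and 0.20 in the other lines on the log2 scale (adjusted p = 0.0242), and Ntn1 by -2.42 and -0.16 (adjusted p = 0.0332). Ntn4, Ephb6 and Sema6d were lower with MYCN on in both but by more in G9577, with log2 changes there of -2.86, -3.40 and -4.30. Mesenchymal markers were also lower with MYCN on in G9577, with 3965 CPM against 18223 CPM for their sum. Lyz2 and Sftpb were lower there too, at 0.0932 and 0.466 CPM (MYCN on) against 55.0 and 39.4 CPM (MYCN off). The part of these marker shifts in the guidance genes' changes was not tested.

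**Figure D4:**
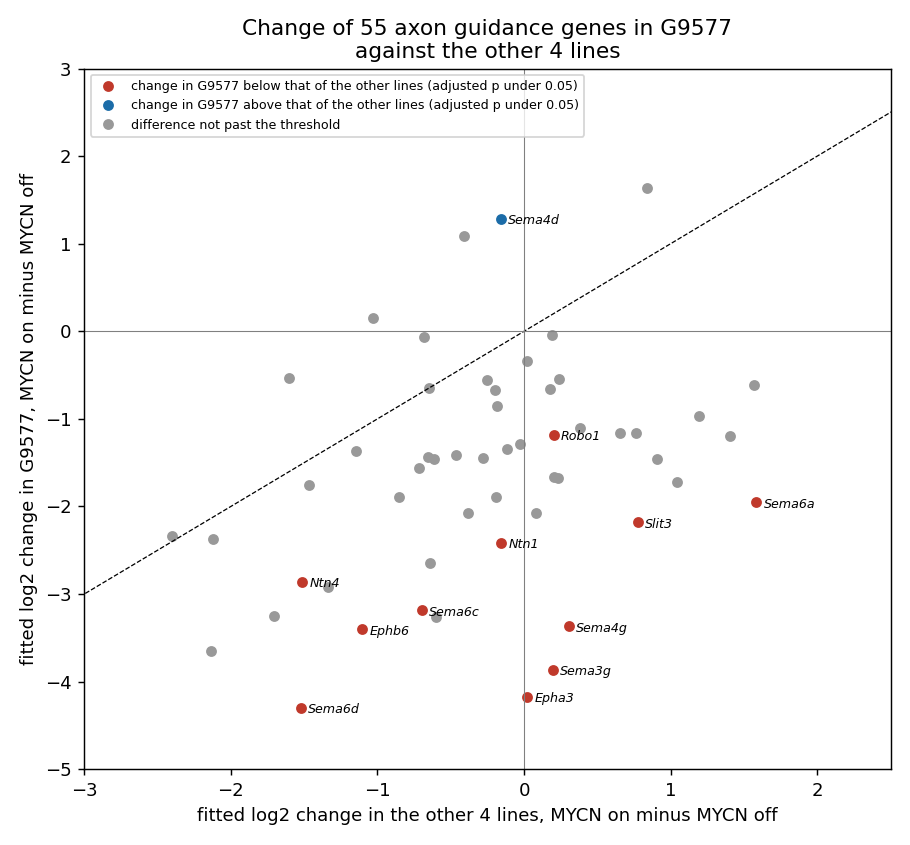
Fitted log2 change with MYCN (on minus off) in G9577 on the vertical axis against that in the other 4 lines on the horizontal axis, for the 55 genes with counts in both G9577 libraries. Red and blue points are the 11 genes with a lower and the 1 gene with a higher change in G9577 at an adjusted p under 0.05; the dashed line marks equal change, and most points lie below it.

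Without G9577 the same comparison gave 18 lower and 5 higher guidance genes of 58, where 17.4% of all genes were lower and 17.4% higher. With that line left out, Unc5d passed the count filter and Efna1 did not. The 18 lower genes held 16 of the 17 found with all lines, and Dcc and Unc5d were added. Epha4 was lost. The genes higher without G9577 were Epha8, Nrp2, Unc5a, Sema6a and Sema3d. Nrp2, the neuropilin that binds Sema3f, was higher in 3 of the 4 lines. Nrp2 had 17.5, 29.7, 17.8, 14.8 and 169.7 CPM with MYCN on, against 6.25, 7.59, 5.87, 17.4 and 333 CPM with MYCN off. Its fitted log2 change was 1.22 without G9577 (adjusted p = 0.0404) and 0.75 with it (adjusted p = 0.25). Sema6a, a transmembrane semaphorin, had a log2 change of 1.59 without G9577 (adjusted p = 0.0123) and was lower with MYCN on in G9577. Unc5a, with 0.66 (adjusted p = 0.0366), and Sema3d, with 1.05 (adjusted p = 0.0442), were the other 2. Dcc was lower in each of the 4 neuroendocrine lines, with a log2 change of -0.86 (adjusted p = 0.0112), and was at or near 0 counts in G9577.

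Genes that work with these ligands and receptors were examined in 2 lists, beside a share over all genes of 15.6% lower and 15.3% higher. Of 21 tested guidance partners outside the symbol rule, 6 were lower and 2 were higher. L1cam, an adhesion molecule that joins Nrp1 in the Sema3a receptor, changed by -1.004 on the log2 scale (SE 0.12, adjusted p = 0.00368), and Dscaml1, an adhesion molecule of the immunoglobulin family, changed by -2.06 (SE 0.31, adjusted p = 0.00554). Cdon, a hedgehog coreceptor, and Flrt3, an Unc5-binding protein, were lower by smaller amounts, at log2 changes of -0.86 and -0.90 (adjusted p = 0.0124 and 0.0159). Fzd3 and Ryk, receptors for Wnt guidance cues, were higher, at 0.54 (adjusted p = 0.0287) and 0.35 (adjusted p = 0.0471). Of 57 tested signal transducers, 17 were lower and 1 was higher. The lower ones included Srgap1 and Srgap3, GTPase-activating proteins that bind Robo receptors, at log2 changes of -1.30 and -1.10 (adjusted p = 0.00368 and 0.00425). Arhgef11, the RhoGEF that acts below Plxnb1, changed by -0.89 (adjusted p = 0.00495) and Ablim1, an actin-binding protein of netrin signalling in the worm, by -1.31 (adjusted p = 0.00346). Ptk2, focal adhesion kinase, was the higher one, at 0.47 (adjusted p = 0.027). The median log2 change was -0.17 for the partners and -0.15 for the transducers, against -0.08 for all genes. Both lists together had 23 lower and 3 higher genes, and leaving out G4314 gave 14 lower genes (against a share of 7.14% over all genes) and leaving out G9351 gave 12 (against 7.12%). The higher count was 0 without G4314, G9351 or G9488 and 5 without G9577, and it was also 5 with DESeq2 and with limma-voom.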

How the data were processed

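The measurement is RNA-seq of 5 mouse lines, each with MYCN on and off. The submitters' processing notes name bcl2fastq 1.8.4 for demultiplexing, STAR 2.5.2a for alignment and the genome build mm9. The authors deposited raw read counts for each gene, which featureCounts 1.6.0 made without regard to strand, per the file headers. The library kit, per the labels' protocols, selects polyadenylated RNA and does not mark strand, so sense and antisense reads cannot be told apart, and reads over several genes were not counted. No spike-in is named, so levels are relative to each library's total.

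Genes were filtered with filterByExpr (minimum count 10), which left 12835, and tested with edgeR 4.0.16 (R 4.3.3; TMM scaling, quasi-likelihood F test, line as a block, 4 residual degrees of freedom, two-sided, Benjamini-Hochberg adjustment, threshold 0.05). The biological coefficient of variation was 28.5%. Fitted log2 changes are on minus off, with the change over the square root of F as standard error. For a single line the change is the difference between its log2 CPM values (prior count 2) and has no test. RPKM uses the exon length in the files. Each line and condition has 1 library and nothing says that cultures were repeated. The p-values for MYCN therefore set its change against the spread of that change among the lines. Those of the line term set the differences in level among lines against the same residual spread. The test was tried on simulated counts with known changes, where large changes were called and most small ones were missed. Those counts had 1 dispersion for all genes and the same fold in every line. They cannot show how the test performs where lines change unequally, as here. The line pairs the libraries by the labels: deviations from the group means correlated with r of 0.721 to 0.873 within a line and at most 0.273 between lines. No library was a copy of another.

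The members, lists and tests were chosen with earlier results of these data known. Named with values in every library are members past the threshold, Epha2, Robo2 and the 2 most abundant per length of each class; Plxnb3, Epha3 and Nrp2, and other members named with single values, were chosen after their values were seen. From the pathway lists up to 4 genes each way were named, by smallest p. Alternatives were no line block, DESeq2 1.42.0, limma-voom (limma 3.58.1), other scalings and filters, and each line left out. Coordinates are those of the files (mm9), and promoters are RefSeq's in GRCm38.p6, whose coordinates are not comparable with mm9.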

Additional observations from a re-analysis of the deposited data

Results flagged for a closer look

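Within the 5 libraries of a condition, 16 of 56 tested sets of values of the 28 named genes had a line whose gap to its nearest neighbour, divided by the whole range of log2 levels, exceeded 0.71. Chance gives about 1 in 20 for a single set, but these sets share the same 5 lines and are not independent. Some genes were also named for a mean level that G9577 sets, so the count cannot be judged against that rate. The line that stood apart was G9577, the line with few neuroendocrine and many mesenchymal transcripts, in 14 of the 16. It was the lowest line for Epha8 with MYCN on (gap 0.736 of the range) and off (0.719), for Ephb2 (0.745), Ephb6 (0.877) and Ntn4 (0.76) with MYCN on, for Plxna2 with MYCN on (0.771) and off (0.729), and for Sema4d with MYCN on (0.717) and off (0.759). G9577 was the highest line for Slit2 (0.878) and Slit3 (0.757) with MYCN off, for Plxnb2 with MYCN on (0.841) and off (0.722), and for Sema3f with MYCN on (0.742). Slit2 and Slit3 were named as the 2 most abundant Slits per length, a rank that rests on G9577 (18.5 and 71.5 RPKM with MYCN off). Their flags follow from that choice. The 2 other cases were Ephb3, highest in G4314 with MYCN off (0.733), and Sema3b, lowest in G9351 with MYCN on (0.711).

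For 12 genes the change with MYCN in the G9577 pair lay apart from that in the other 4 lines at an adjusted p under 0.05, in a test added after seeing the data that takes its spread from those 4 lines. The difference of log2 changes (G9577 minus the other lines) was -4.20 for Epha3, -4.06 for Sema3g, -3.67 for Sema4g, -3.54 for Sema6a, -2.96 for Slit3, -2.77 for Sema6d, -2.49 for Sema6c, -2.30 for Ephb6, -2.26 for Ntn1, -1.39 for Robo1, -1.35 for Ntn4 and 1.44 for Sema4d. Each rests on a single pair of G9577 libraries, whose own variability was not measured. The shares of all genes with such a change, given above beside the same calls, apply here as well.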

How the results depend on the processing

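The 17 lower calls were the same genes with RLE scaling and with library size alone. DESeq2 gave 19 (adding Dcc and Sema6c), limma-voom 18 (adding Dcc), and no filter on low counts 18 (adding Plxnb3). With a line left out, lower calls numbered 14 to 18, higher calls 1 to 5, and genes differing among lines 32 to 46, while 7.12% to 17.4% of all genes were lower and 6.32% to 17.4% higher. Over all genes DESeq2 called 23.4% lower and limma-voom 18.5%. Of the 18 called genes, 13 kept their call without each of the 5 lines, the exceptions being Epha4, Ephb6, Plxna2, Plxnc1 and Sema3f. Without the replicate block, in which the paired libraries of a line are treated as unrelated, 0 guidance genes were lower and 0 higher in edgeR, and 6 of the 58 had an unadjusted p under 0.05. That fit called 215 genes higher and 59 lower over the whole table, and of the pathway lists 0 higher and 1 lower. The pathway lists had 5 higher genes with DESeq2 and with limma-voom, and 0 to 5 higher and 12 to 22 lower with a line left out. Genes that changed sign were not called where they did so. Without the block the log2 change was 0.0204 for Robo1, -0.45 for Unc5b and -0.0764 for Sema4d, with limma-voom -0.16 for Unc5b and -0.0044 for Sema4d, and with RLE scaling -0.0014 for Ephb2. With a line left out the log2 changes ran from -0.0414 to 0.19 for Ephb2, -0.40 to 0.11 for Efnb2, -0.18 to 0.37 for Unc5b, -0.17 to 0.21 for Robo1, -0.90 to 0.67 for Slit3, -0.14 to 0.0318 for Plxnb2 and -0.15 to 0.24 for Sema4d. The cause was not tested. Slit2, Plxnb3, Unc5d and Ephb4 were below the test's count filter.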
